A study of Arabidopsis thaliana with 6 samples.

Results

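Genes that make chorismate and tryptophan were followed in leaves treated with 2,6-dichloroisonicotinic acid (INA), a synthetic analog of SA. The set holds 9 loci, chosen by name out of the 22183 loci listed: the DAHP synthase genes *DHS1* and *DHS2*, *EPSPS*, and the tryptophan synthesis genes *ASA1*, *PAT1*, *IGPS*, *TSA1*, *TSB1* and *TSB2*. RNA-seq libraries were analysed for INA-treated *npr1-1* mutants (npr1-1+INA), INA-treated *hac1-2 hac5-2* double mutants (hac1/5+INA), INA-treated wild type (Col+INA) and water-treated wild type (Col). NPR1 is a coactivator of the SA response, and HAC1 and HAC5 are histone acetyltransferases. The plants were 4 weeks old and grown in short days, and leaves were taken 12 h after a spray with 300 µM INA or water. The *npr1-1* allele alters the NPR1 protein and does not remove its transcript. RNA of 3 experiments was pooled into 1 library per condition, and libraries of the mutants given water were not analysed here. Differences therefore have no replicate check, no test between conditions was possible, and the 95% intervals below cover counting error only.

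The shikimate pathway of plastids turns phosphoenolpyruvate and erythrose phosphate into chorismate, the branch point towards tryptophan, phenylalanine, tyrosine, folates and, through isochorismate, SA. DAHP synthase catalyses its entry step, and EPSPS, the target of the herbicide glyphosate, acts shortly before chorismate. Anthranilate synthase commits chorismate to tryptophan, which in *Arabidopsis* leaves also feeds indole glucosinolates and the phytoalexin camalexin. All 9 loci carried a plastid or chloroplast term in the deposited annotation.

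Reads on gene models summed to between 6698569 and 7146973 per library. *HAC5* had 2 reads in hac1/5+INA, against 122 in Col+INA, whereas reads of *HAC1* (25 in hac1/5+INA, 28 in Col+INA) do not check the label, since the deposited tables do not show where in the gene they lie. *PR1*, the usual marker gene of the SA response, had 2 reads in npr1-1+INA, 96 in hac1/5+INA, 16158 in Col+INA and 4 in Col. The 7 leaf markers took 1.23% to 2.12% of the reads of a library. Of 4 root markers and 4 flower and seed markers, 2 each were listed, with at most 3 and 2 reads per library in sum. Each locus was represented by its gene model with the most reads. A locus was called at a difference of at least 2-fold in reads per library sum, provided that both libraries averaged at least 10 reads. The median log2 ratio of all loci tested was 0.18 between Col+INA and Col, -0.07 between npr1-1+INA and Col+INA, and 0.13 between hac1/5+INA and Col+INA, and single ratios stand relative to these shifts.

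The first comparison asks how INA treatment relates to these genes in wild type. *IGPS* and *TSA1* were called higher in Col+INA and 0 members lower, so that 2 of the 8 members with enough reads were called, whereas 22.1% of all tested loci were called higher and 14.1% lower. At a difference of at least 1.5-fold, 6 members were higher (34.1% of all tested loci were) and 1 was lower (23.3% were). The median log2 ratio of the 9 members was 0.87 (0.89 for the 8 with enough reads), against 0.18 for all tested loci. In leaf RNA, fewer cells of a type and less RNA per cell cannot be told apart.

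*IGPS* (AT2G04400, TAIR10 chromosome 2, 1531148 to 1533737) encodes indole-3-glycerol phosphate synthase, which closes the pyrrole ring of indole. It had 1215 reads (119 RPKM) in Col+INA, against 382 reads (38.7 RPKM) in Col, and was 3.08-fold higher (2.74 to 3.46). The deposited *IGPS* model overlaps AT2G04410 on the opposite strand over 41 bases. AT2G04410 had 327 reads in npr1-1+INA, 717 in hac1/5+INA, 854 in Col+INA and 393 in Col. Whether counting used the strand is not given in the sources used here, and the part of the overlap in the result was not tested. *TSA1* (AT3G54640, chromosome 3, 20223148 to 20225523) encodes the alpha subunit of tryptophan synthase, which releases indole. It had 1047 reads (109 RPKM) in Col+INA, against 370 reads (39.8 RPKM) in Col, and was 2.74-fold higher (2.43 to 3.09).

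The other tryptophan synthesis members with enough reads, *PAT1*, *TSB1* and *TSB2*, had ratios just under 2-fold and were not called. *PAT1* (AT5G17990, chromosome 5, 5957213 to 5959905), for anthranilate phosphoribosyltransferase, had 1002 reads in Col+INA, against 508 in Col, a ratio of 1.91 (1.71 to 2.13). *TSB1* (AT5G54810, chromosome 5, 22264594 to 22266785) encodes a beta subunit of tryptophan synthase, which joins indole to serine, and had 1440 reads in Col+INA, against 763 in Col, a ratio of 1.83 (1.67 to 2.00). *TSB2* (AT4G27070, chromosome 4, 13586340 to 13588821), a further beta subunit gene, had 338 reads in Col+INA, against 174 in Col, a ratio of 1.88 (1.56 to 2.27). All of these ratios exceeded counting error, and the intervals of *PAT1* and *TSB2* span the 2-fold threshold.

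*ASA1* (AT5G05730, chromosome 5, 1719557 to 1722903) encodes the alpha subunit of anthranilate synthase, the committing step, and had too few reads to be measured. Its leading gene model had 2 reads in npr1-1+INA, 16 in hac1/5+INA, 11 in Col+INA and 7 in Col. It was the only member with more than 1 listed gene model, and the other model had 3 reads in Col and 0 in each of the other libraries. Loci with 2 or more listed models had a median of 36 reads over the 4 libraries, against 202 for loci with 1, and how reads that match several models were counted is not given in the sources used here. The ratio of Col+INA to Col had an interval of 0.539 to 4.63, so no direction can be read from it.

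The entry of the shikimate pathway was split. *DHS1* (AT4G39980, chromosome 4, 18539575 to 18542093) had 716 reads (52.2 RPKM) in Col+INA, against 1210 reads (91.2 RPKM) in Col, and was 1.75-fold lower (ratio 0.573, 0.522 to 0.629). *DHS2* (AT4G33510, chromosome 4, 16116447 to 16118797) had 678 reads (52.1 RPKM) in Col+INA, against 367 reads (29.1 RPKM) in Col, a ratio of 1.79 (1.57 to 2.04). The DAHP synthase genes of the set thus lay on opposite sides of Col. *EPSPS* (AT2G45300, chromosome 2, 18677311 to 18680072) had 684 reads in Col+INA, against 746 in Col, a ratio of 0.888 (0.799 to 0.986). Its paralog AT1G48860 is 91.0% identical over the aligned coding bases and shares 108 of 1514 windows of 50 bases, so that reads may be split between them. *TSB1* and *TSB2* (85.4% identical) and *DHS1* and *DHS2* (76.0%) share 0 such windows. Only exact matches were counted, whereas the alignment allowed 2 mismatches, so a split of reads within these pairs was not tested.

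**Figure D1:**
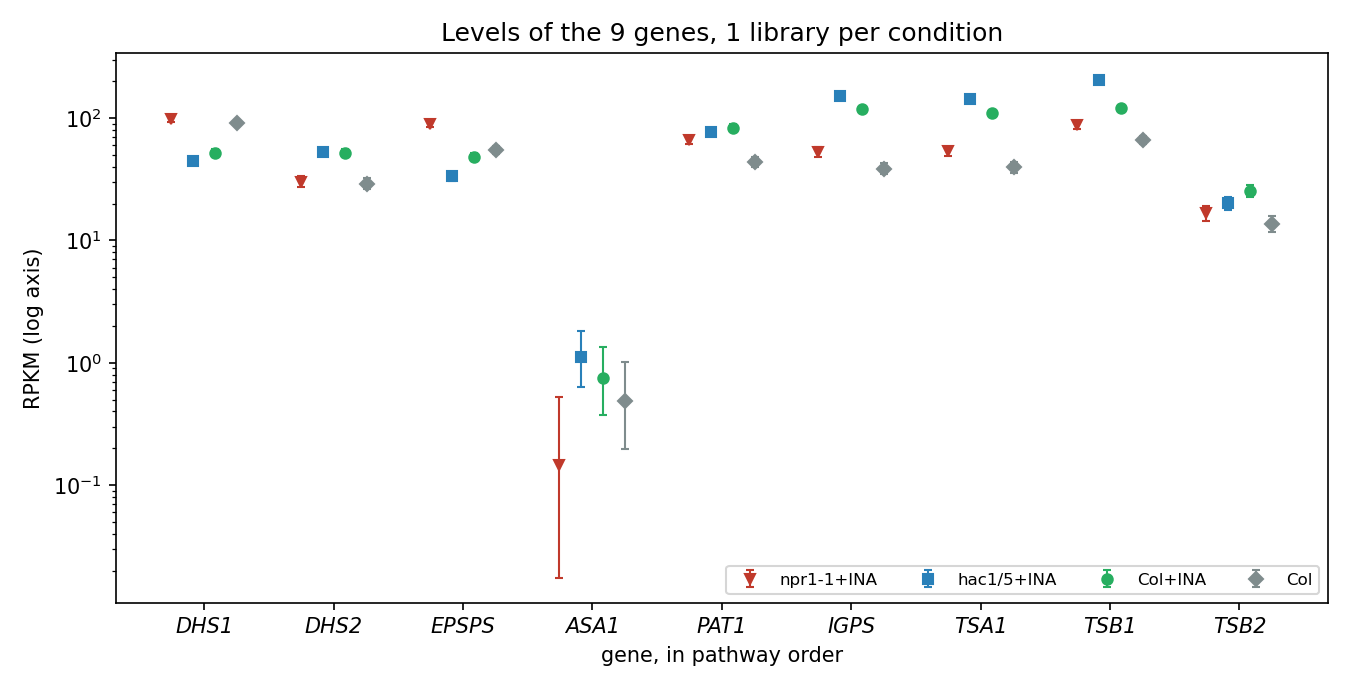
RPKM (log axis) of the 9 members in npr1-1+INA, hac1/5+INA, Col+INA and Col. Each point is 1 library and bars are 95% Poisson intervals for counting error. *IGPS* and *TSA1* stand at 119 and 109 RPKM in Col+INA, against 38.7 and 39.8 RPKM in Col, *DHS1* and *EPSPS* are highest in npr1-1+INA, and *ASA1* has few reads in every library.

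The second comparison sets INA-treated *npr1-1* against INA-treated wild type. *IGPS* and *TSA1* were called lower in npr1-1+INA and 0 members higher, so that again 2 of 8 were called, whereas 20.4% of all tested loci were called lower and 17.5% higher. At 1.5-fold, 4 members were lower (32.1% of all tested loci were) and 2 were higher (27.6% were). The median log2 ratio of the 9 members was -0.61 (-0.53 for the 8 with enough reads), against -0.07 for all tested loci. *IGPS* had 506 reads in npr1-1+INA, against 1215 in Col+INA, and was 2.25-fold lower (ratio 0.444, 0.400 to 0.493). The overlapping AT2G04410 was also lower, with 327 reads in npr1-1+INA, against 854 in Col+INA, and its part was not tested. *TSA1* had 482 reads in npr1-1+INA, against 1047 in Col+INA, and was 2.04-fold lower (ratio 0.491, 0.440 to 0.548). The call of *TSA1* rested on library scaling: with TMM factors, DESeq2 size factors or centring on the median of all loci, only *IGPS* was called, although the log2 ratio of *TSA1* moved little, being -0.96 to -0.95 under these alternatives, against -1.03.

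*DHS2*, *TSB2*, *TSB1* and *PAT1* were lower without reaching 2-fold. *DHS2* had 370 reads in npr1-1+INA, against 678 in Col+INA (ratio 0.582, 0.512 to 0.662), and *TSB2* had 208 in npr1-1+INA, against 338 in Col+INA (ratio 0.657, 0.550 to 0.783). *TSB1* had 980 reads in npr1-1+INA, against 1440 in Col+INA (ratio 0.726, 0.669 to 0.788), and *PAT1* had 739 in npr1-1+INA, against 1002 in Col+INA (ratio 0.787, 0.715 to 0.866). These ratios lay below 1 by more than counting error. For *ASA1*, 2 reads in npr1-1+INA, against 11 in Col+INA, gave a ratio of 0.194 from the reads as listed (0.0209 to 0.889) and of 0.291 with the count under 3 set to 3.

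*DHS1* and *EPSPS* lay on the other side. *DHS1* had 1270 reads in npr1-1+INA, against 716 in Col+INA, a ratio of 1.89 (1.73 to 2.08). *EPSPS* had 1182 reads in npr1-1+INA, against 684 in Col+INA, a ratio of 1.84 (1.68 to 2.03). The 7 leaf markers, all genes of photosynthesis, summed to 134315 reads in npr1-1+INA, 119049 in hac1/5+INA, 88083 in Col+INA and 146527 in Col. Their sum was thus also higher in npr1-1+INA relative to Col+INA, and its part in these results was not tested. In hac1/5+INA the sum exceeded that of Col+INA too, but the markers had a median log2 ratio of -0.13 (-0.74 to 1.63).

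Set against the Col library, npr1-1+INA had 0 called members, whereas 7.76% of all tested loci were called higher and 3.95% lower. The ratio to Col was 1.5 for *PAT1* (1.34 to 1.69), 1.37 for *IGPS* (1.20 to 1.57), 1.35 for *TSA1* (1.17 to 1.55) and 1.33 for *TSB1* (1.21 to 1.46), so that these genes stood between Col and Col+INA. *EPSPS* stood above Col by a ratio of 1.64 (1.49 to 1.80) and was highest in npr1-1+INA. *DHS2* had a ratio of 1.04 (0.899 to 1.21), which spans no difference. Without the water-treated *npr1-1* library, a genotype difference before treatment and a response to INA cannot be told apart.

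The third comparison sets INA-treated *hac1-2 hac5-2* against INA-treated wild type. Here 0 of 9 members were called, whereas 9.52% of all tested loci were called lower and 7.79% higher. The median log2 ratio of the 9 members was 0.03, against 0.13 for all tested loci, and turned negative under other scalings of the libraries. *TSB1* had 2374 reads (205 RPKM) in hac1/5+INA, against 1440 reads (121 RPKM) in Col+INA, a ratio of 1.70 (1.59 to 1.81). It was the only member past 1.5-fold, where 21.0% of all tested loci were higher and 15.8% lower. *TSA1*, the partner subunit, had 1338 reads in hac1/5+INA, against 1047 in Col+INA (ratio 1.32, 1.21 to 1.43), and *IGPS* had 1505 in hac1/5+INA, against 1215 in Col+INA (ratio 1.27, 1.18 to 1.38).

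*EPSPS*, *TSB2* and *DHS1* were below Col+INA by more than counting error. *EPSPS* had 457 reads in hac1/5+INA, against 684 in Col+INA (ratio 0.688, 0.609 to 0.775), and *TSB2* had 260 in hac1/5+INA, against 338 in Col+INA (ratio 0.792, 0.671 to 0.933). *DHS1* had 597 reads in hac1/5+INA, against 716 in Col+INA (ratio 0.858, 0.768 to 0.958). The intervals of *DHS2* (672 reads in hac1/5+INA, 678 in Col+INA, ratio 0.915 to 1.14), *PAT1* (902 reads in hac1/5+INA, 1002 in Col+INA, 0.846 to 1.01) and *ASA1* (0.652 to 3.57) span no difference. The direction of *DHS2* flips with TMM factors, DESeq2 size factors or centring.

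Against the Col library, 4 members were called higher in hac1/5+INA and 1 lower, whereas 25.1% of all tested loci were called higher and 14.6% lower. *IGPS* was 3.93-fold higher (3.51 to 4.4), *TSA1* 3.60-fold (3.21 to 4.05) and *TSB1* 3.10-fold (2.86 to 3.37). The remaining call, *ASA1*, has an interval that spans no difference (0.887 to 6.55). *DHS1* was 2.03-fold lower (ratio 0.492, 0.445 to 0.543). The comparisons are not independent, since the Col+INA library enters all 3 of the main ones and the Col library all of those with Col.

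**Figure D2:**
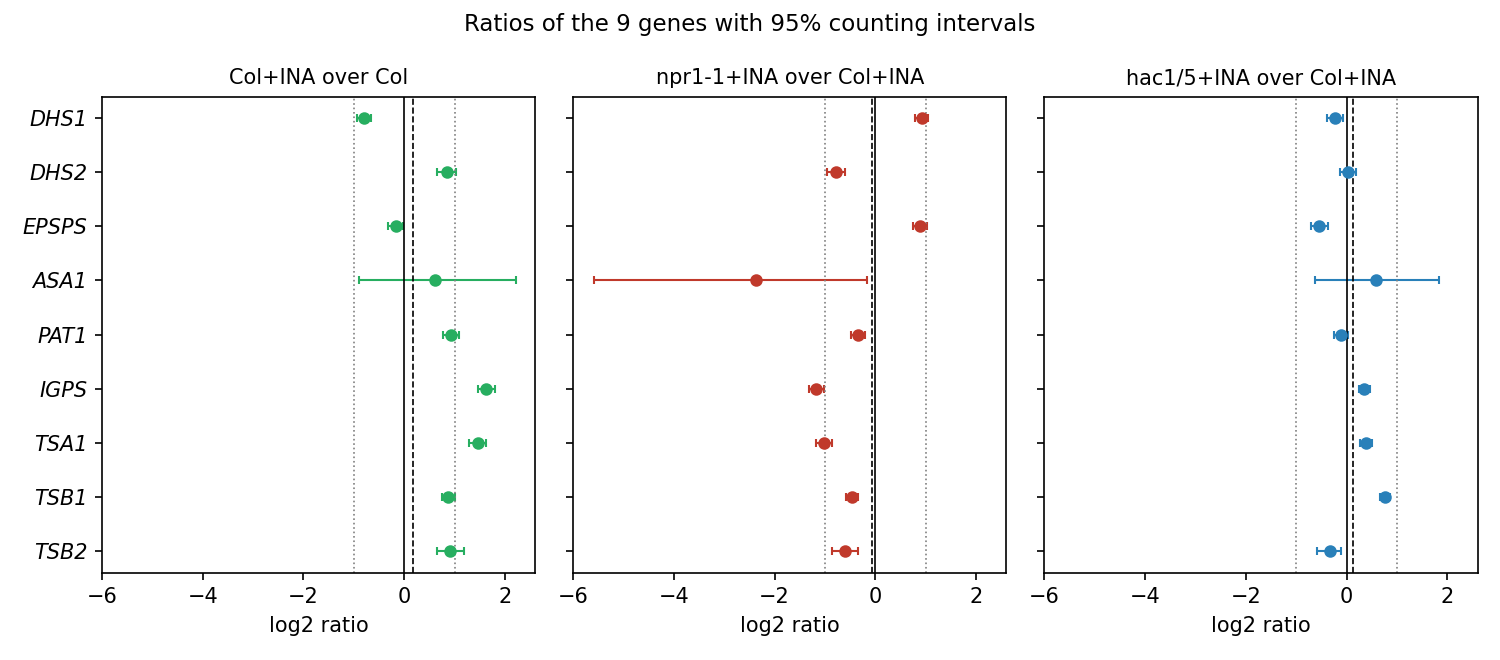
Log2 ratios of the 9 members in the 3 main comparisons, 1 library per condition, with 95% counting intervals. Dashed lines mark the median of all tested loci (0.18, -0.07 and 0.13) and dotted lines a 2-fold difference, and *ASA1* is drawn from its reads as listed. *DHS1* and *EPSPS* lie opposite to *IGPS* and *TSA1* in the first and second panels, and no point passes a dotted line in the third.

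Ratios between genes of a library do not depend on how libraries are scaled. Per length, *DHS2* stood at 0.307 times *DHS1* in npr1-1+INA (0.273 to 0.345), 1.19 times in hac1/5+INA (1.06 to 1.33), 0.997 times in Col+INA (0.897 to 1.11) and 0.319 times in Col (0.283 to 0.359). The intervals of npr1-1+INA and Col overlapped, and both lay below those of hac1/5+INA and Col+INA. *IGPS* stood at 0.592 times *EPSPS* in npr1-1+INA (0.532 to 0.657), 4.55 times in hac1/5+INA (4.10 to 5.07), 2.46 times in Col+INA (2.23 to 2.70) and 0.708 times in Col (0.624 to 0.802). *EPSPS* thus exceeded *IGPS* in npr1-1+INA and Col, and *IGPS* exceeded *EPSPS* in the other libraries. *TSA1* stood at 0.612 times *TSB1* in npr1-1+INA (0.548 to 0.684), 0.702 times in hac1/5+INA (0.656 to 0.751), 0.905 times in Col+INA (0.835 to 0.981) and 0.604 times in Col (0.532 to 0.685). *TSB2* stood at 0.191 times *TSB1* in npr1-1+INA (0.164 to 0.222), 0.0987 times in hac1/5+INA (0.0865 to 0.112), 0.212 times in Col+INA (0.187 to 0.238) and 0.206 times in Col (0.173 to 0.243). The balance of the beta subunit genes was lowest for *TSB2* in hac1/5+INA, where its interval lay below the other 3.

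By RPKM, *DHS1* led in npr1-1+INA (98.8) and Col (91.2), and *TSB1* led in hac1/5+INA (205) and Col+INA (121). *TSB2* was next to last and *ASA1* last in every library. *ASA1*, with 2 listed gene models, had too few reads to be measured, so its rank does not give its level. Neighbours that did not differ beyond counting error were *EPSPS* with *TSB1* and *TSA1* with *IGPS* in npr1-1+INA, and *IGPS* with *TSA1* in hac1/5+INA. In Col+INA these were *TSB1* with *IGPS*, *DHS1* with *DHS2* and *DHS2* with *EPSPS*, and in Col *PAT1* with *TSA1* and *TSA1* with *IGPS*.

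The third DAHP synthase gene, *DHS3* (AT1G22410), is not among the 9 and was the most abundant of the family in every library. It had 1908 reads in npr1-1+INA, 2694 in hac1/5+INA, 4317 in Col+INA and 1564 in Col. It was called higher in Col+INA (2.67-fold against Col), was called lower in npr1-1+INA (2.12-fold against Col+INA), and was 1.56-fold lower in hac1/5+INA. The RPKM of the 3 genes summed to 278 in npr1-1+INA, 300.1 in hac1/5+INA, 419 in Col+INA and 238 in Col. *DHS1* made up 35.6% of this sum in npr1-1+INA, 14.9% in hac1/5+INA, 12.5% in Col+INA and 38.3% in Col.

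**Figure D3:**
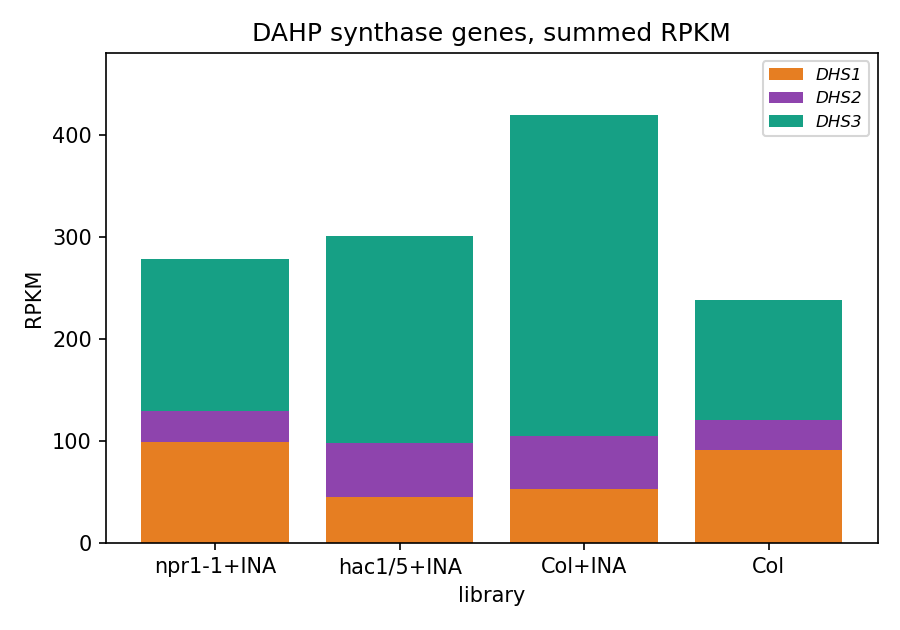
Stacked RPKM of *DHS1*, *DHS2* and *DHS3* in npr1-1+INA, hac1/5+INA, Col+INA and Col, 1 library each. The sum is 419 RPKM in Col+INA, against 238 RPKM in Col, and *DHS1* makes up 12.5% of it in Col+INA, against 38.3% in Col.

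Upstream sequence is shown for *IGPS*, which had the largest ratio of Col+INA to Col, and for *EPSPS* and *DHS1*, which were lower there. The 250 bases before the RefSeq gene start (TAIR10.1) were searched on both strands for TTGAC, the core of the W-box bound by WRKY factors, and TGACG, the core of sites bound by TGA factors, the partners of NPR1. The letters TTGACG hold both. TTGAC was found in 5 of 9 members and in 44.9% of 27438 regions of this length, and TGACG in 3 of 9 members and in 18.6%. A match describes letters and not a binding site. *IGPS*, *TSA1*, *PAT1* and *ASA1* held TTGAC, *EPSPS* held both in TTGACG, *DHS2* and *TSB2* held TGACG, and *DHS1* and *TSB1* held neither. The 250 bases of *DHS2*, *PAT1* and *TSA1* overlap another protein-coding gene, so matches there may lie in that gene. The regions, chr2:1530898-1531147 for *IGPS*, chr2:18677061-18677310 for *EPSPS* and chr4:18539261-18539510 for *DHS1*, lie on the plus strand and are written 5′ to 3′ with matches in capitals.
IGPS: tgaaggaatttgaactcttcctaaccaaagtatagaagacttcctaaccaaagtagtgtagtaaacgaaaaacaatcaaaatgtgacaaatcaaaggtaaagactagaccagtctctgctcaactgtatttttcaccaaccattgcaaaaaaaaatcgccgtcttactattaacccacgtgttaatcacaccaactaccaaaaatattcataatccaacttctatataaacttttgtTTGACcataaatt
EPSPS: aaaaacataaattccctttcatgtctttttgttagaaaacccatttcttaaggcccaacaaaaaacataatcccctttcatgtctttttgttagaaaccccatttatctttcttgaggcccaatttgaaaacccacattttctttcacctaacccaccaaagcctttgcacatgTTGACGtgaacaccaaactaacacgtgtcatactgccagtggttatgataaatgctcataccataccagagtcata
DHS1: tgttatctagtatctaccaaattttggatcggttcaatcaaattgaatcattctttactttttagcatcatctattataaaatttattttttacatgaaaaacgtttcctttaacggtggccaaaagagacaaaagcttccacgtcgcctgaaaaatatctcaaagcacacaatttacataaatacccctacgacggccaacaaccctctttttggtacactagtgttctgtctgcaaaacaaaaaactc
The match begins 13 bases before the start of *IGPS*, and that of *EPSPS* begins 76 bases before its start.

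The other listed genes of both pathways were examined in the same way. Of 7 further shikimate pathway genes, 5 had enough reads in the comparison of Col+INA with Col, and *DHS3* was the 1 called. In this comparison 22.1% of all tested loci were called higher and 14.1% lower. Of 14 further tryptophan synthesis loci, 10 were listed and 4 were not analysed here, and 2 of the 6 with enough reads were called higher in Col+INA. These were *ASB1* (AT1G25220), for a beta subunit of anthranilate synthase, with 19 reads in Col+INA, against 6 in Col, and the *IGPS* paralog AT5G48220, with 14 reads in Col+INA, against 6 in Col. Both have several listed gene models, and the interval of the *IGPS* paralog (0.816 to 7.17) spans no difference. *ASA2* (AT2G29690), the paralog of *ASA1*, had 210 reads in npr1-1+INA, 187 in hac1/5+INA, 162 in Col+INA and 171 in Col, and was called in none of the 3 comparisons. *ASB2* (AT5G57890), a further beta subunit gene, was called higher in npr1-1+INA, with 66 reads, against 26 in Col+INA. *TSB4* (AT5G38530), a tryptophan synthase beta type gene, was called higher in hac1/5+INA, with 813 reads, against 391 in Col+INA.

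Other routes from chorismate had 14 of 16 genes tested between Col+INA and Col, with 3 called higher and 1 lower. Among all tested loci, 22.1% were called higher and 14.1% lower. Isochorismate synthase *ICS1*, the entry to SA, was 16.5-fold higher in Col+INA, with 153 reads, against 9 in Col. The chorismate mutase genes *CM2* and *CM3* were 3.05-fold and 2.20-fold higher, and *ADCS*, for the first step towards folates, was 2.67-fold lower. In npr1-1+INA, where 20.4% of all tested loci were called lower and 17.5% higher, *ICS1* was 14.3-fold and *CM2* 3.66-fold lower, relative to Col+INA. There *ADCS* (2.65-fold), *CM1* (2.11-fold) and the prephenate aminotransferase gene (2.13-fold) were called higher. The aminotransferase gene had only 24 reads in npr1-1+INA, against 12 in Col+INA (ratio 1.03 to 4.68). It and *ICS1* have 2 listed gene models each. In hac1/5+INA, 0 of 13 genes of these routes were called relative to Col+INA, whereas 7.79% of all tested loci were called higher and 9.52% lower.

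Among 10 genes that use tryptophan, 3 were called higher and 1 lower in Col+INA relative to Col. The shares of all tested loci were 22.1% higher and 14.1% lower. *PAD3*, for the last step of camalexin synthesis, had 3 reads in npr1-1+INA, 2412 in hac1/5+INA, 512 in Col+INA and 0 in Col, and was called higher in Col+INA. *CYP71A13*, which acts earlier in camalexin synthesis, had 78 reads in npr1-1+INA, 1884 in hac1/5+INA, 638 in Col+INA and 203 in Col. It has a close copy in *CYP71A12*, so that reads may be split between them. Of the MYB regulators of indole glucosinolates, *MYB51* was 5.29-fold higher and *MYB34* 2.50-fold lower in Col+INA than in Col. For the plastid supply of precursors, 0 of 4 genes were called in each of the 3 comparisons. Of all tested loci, 36.2% were called in either direction between Col+INA and Col. This share was 37.9% between npr1-1+INA and Col+INA, and 17.3% between hac1/5+INA and Col+INA.

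Genes of histidine and branched-chain amino acid synthesis were set beside the members. Of 15 tested between Col+INA and Col, 0 were called higher and 2 lower, whereas 22.1% of all tested loci were called higher and 14.1% lower. Their median log2 ratio was -0.19, against 0.87 for the 9 members and 0.89 for the 8 with enough reads. In npr1-1+INA, 5 of 16 were called higher and 1 lower than in Col+INA, whereas 17.5% of all tested loci were called higher and 20.4% lower. The median of these 16 was 0.88, against -0.61 for the 9 members and -0.53 for the 8 with enough reads. The lists were chosen with earlier results of these data known, and the difference between them was not tested.

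**Figure D4:**
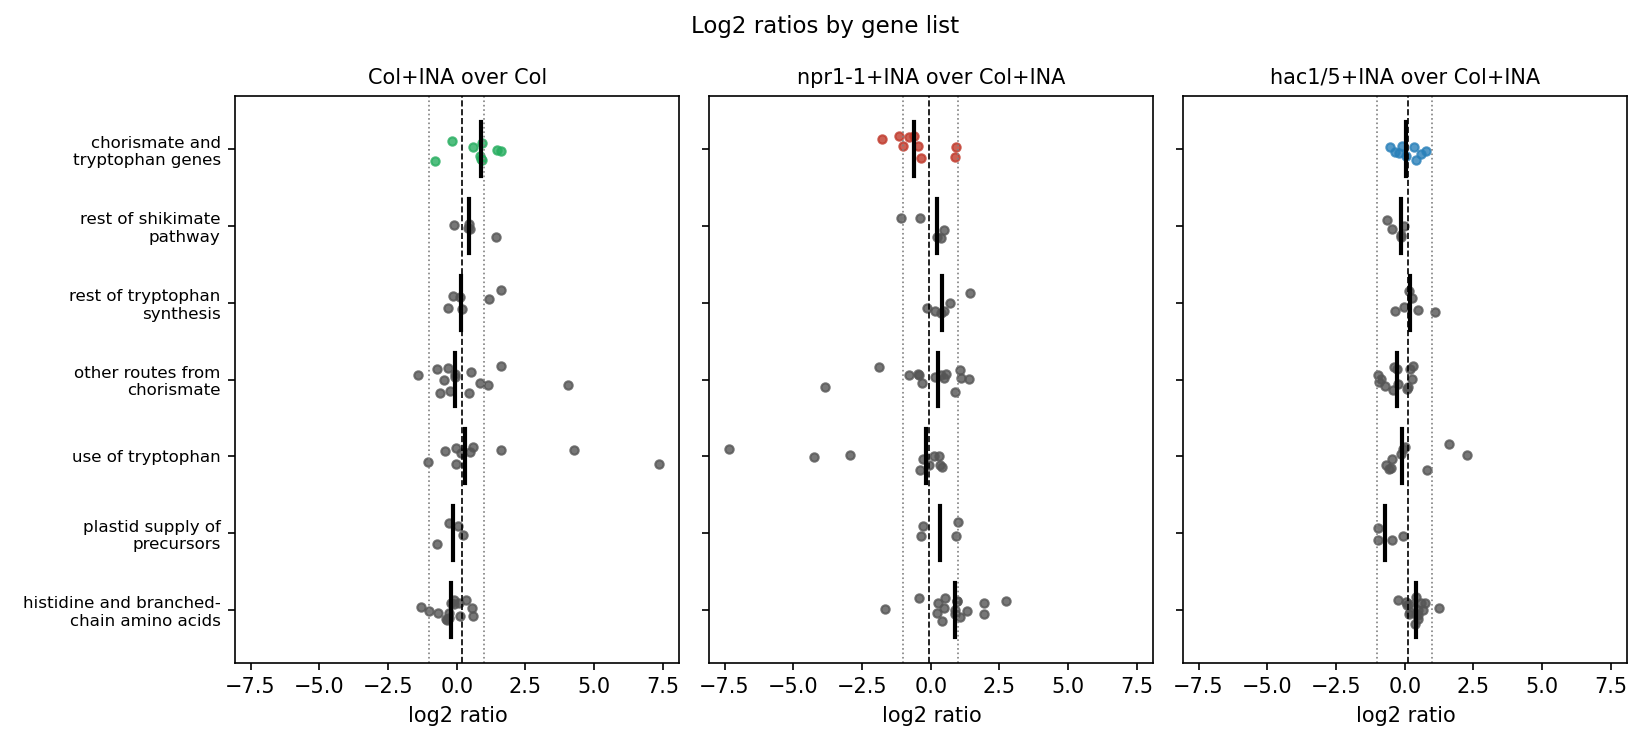
Log2 ratios by gene list in the 3 main comparisons, with all 9 members in the top row and, in the other rows, genes with a mean of at least 10 reads. Points are genes with counts under 3 set to 3, black bars medians of the points, dashed lines the median of all tested loci, and dotted lines a 2-fold difference. The histidine and branched-chain genes have a median of 0.88 in the second panel, against -0.61 for the 9 members (-0.53 for the 8 with enough reads).

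The loci nearest to the medians of the members were sought over the 3 log2 ratios to Col. These medians, each taken separately, were 0.41 in npr1-1+INA, 0.87 in hac1/5+INA and 0.87 in Col+INA. They describe no single member, and the members ranged from -1.02 to 1.97 in hac1/5+INA. Of 9951 other loci with a mean of at least 50 reads, the 5 nearest by Euclidean distance were AT5G63150 (0.0462), *AAC1* (AT3G08580, 0.0499), AT3G18270 (0.0725), AT2G18770 (0.0731) and AT5G43460 (0.0879). *AAC1*, for a mitochondrial ADP/ATP carrier, had 1174 reads in npr1-1+INA, 1628 in hac1/5+INA, 1711 in Col+INA and 918 in Col.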

How the data were processed

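Leaf RNA-seq of 4 conditions was analysed, with 1 library each. The authors aligned reads with SOAPaligner/soap2, allowing at most 2 mismatches, and the submitters' processing notes name TAIR10. The authors deposited 3 tables with read counts per gene model, without normalization. RPKM, also deposited, relates a count to gene model length and to all reads on gene models in that library. The log2 ratios, p-values and FDR of the authors' own comparisons were not used. The tables were joined by gene model (25931 models).

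Ratios compared reads per library sum, with counts under 3 set to 3, and have exact binomial intervals (Clopper-Pearson). Calls are defined in the text. Alternatives were a fold of 1.5, an added exact binomial test of the libraries at an adjusted p of 0.01, TMM factors, DESeq2 size factors, no read filter, reads summed over gene models, and log2(RPKM + 1). Centring on the median of all loci, leaving out *ASA1* and using loci with 1 gene model were chosen after seeing the data. Named genes were the 9 members, paralogs of members, listed genes called in any of the 3 main comparisons, and the 5 nearest loci; *HAC5*, *HAC1* and *PR1* were added to check labels. Members and lists were chosen with earlier results of these data known. Upstream sequences came from RefSeq (TAIR10.1), where 99.97% of 25005 deposited gene models overlapped the gene of the same locus. Scripts were tested on simulated data. Software was SciPy 1.17.1 under Python 3.11.15, with scaling factors from edgeR 4.0.16 and DESeq2 1.42.0 under R 4.3.3.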

Additional observations from a re-analysis of the deposited data

Results flagged for a closer look

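Against the same Col+INA library, 5 members lay on opposite sides in the mutants, each beyond counting error. With 1 library per mutant this difference was not tested between conditions. The share of all loci on opposite sides by the same rule was not computed, so the 5 members cannot be set against it. These members were picked by their ratios to Col+INA, which fixes the direction of the log2 ratio of npr1-1+INA over hac1/5+INA. It is thus no separate check. This log2 ratio was 1.14 for *DHS1* (1270 reads in npr1-1+INA, 597 in hac1/5+INA) and 1.42 for *EPSPS* (1182 reads in npr1-1+INA, 457 in hac1/5+INA). It was -1.52 for *IGPS* (506 reads in npr1-1+INA, 1505 in hac1/5+INA), -1.42 for *TSA1* (482 reads in npr1-1+INA, 1338 in hac1/5+INA) and -1.22 for *TSB1* (980 reads in npr1-1+INA, 2374 in hac1/5+INA).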

How the results depend on the processing

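With a fold of 1.5 in place of 2, 7 members were called between Col+INA and Col (2 at 2-fold), where 57.4% of all tested loci were called in either direction. Likewise 6 were called between npr1-1+INA and Col+INA (2 at 2-fold), where 59.7% of loci were, and 1 between hac1/5+INA and Col+INA (0 at 2-fold), where 36.8% were. With TMM factors, DESeq2 size factors or centring on the median of all loci, 1 member was called between npr1-1+INA and Col+INA, where 37.9% of loci were in each of these settings, and without the filter on reads 3 were, *ASA1* being added, where 32.1% of loci were. The median log2 ratio of the members between Col+INA and Col was 0.69 with DESeq2 size factors and 0.69 when centred, against 0.87. That between hac1/5+INA and Col+INA was 0.03 and became -0.08 with TMM factors, -0.09 with DESeq2 size factors and -0.10 when centred. Of 135 values of single members under the alternatives, 23 lay outside the counting interval of the value reported. The check of sign covered called values only, those of *IGPS* and *TSA1* between Col+INA and Col and between npr1-1+INA and Col+INA. Of these, 0 changed sign. The ratio of *DHS2* between hac1/5+INA and Col+INA, which was not called, did so with TMM factors, DESeq2 size factors or centring. No paired analysis was possible because each condition has 1 library. The few reads of *ASA1* limit any statement on the committing step of the branch.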
